A study of Homo sapiens with 6 samples.

Results

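The genes described here are 10 transcription factors and regulators of the immediate early response, taken as the rows whose gene symbol was *FOS*, *FOSB*, *FOSL1*, *FOSL2*, *JUN*, *JUNB*, *JUND*, *ATF3*, *EGR1* or *IER2*, out of 57905 genes in the table. Each symbol matched 1 row, and all 10 genes passed the filter on low counts with the 15343 genes tested. RNA-seq was performed on HK-2 cells, an immortalized line of human renal proximal tubular cells, labelled as WT in both groups. The control group was 3 libraries of cells given a non-targeting siRNA pool, and the knockdown group was 3 libraries of cells given an siRNA pool targeting INO80, the ATPase of a chromatin remodeling complex. Both groups were transfected with RNAiMax in medium with serum and harvested after 48 h, and the labels name no further stimulus. Nothing in the labels says that the libraries came from separate cultures, and p-values therefore measure the spread between these libraries, which may be technical.

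AP-1 is a dimer of basic leucine zipper proteins. A Jun protein (JUN, JUNB or JUND) pairs with another Jun protein or with a Fos protein (FOS, FOSB, FOSL1 or FOSL2), and the dimer binds the sequence TGACTCA and close variants of it. Immediate early genes are those that a growth factor or a stress switches on within minutes, through MAP kinases and the serum response factor, without new protein synthesis. In tubular cells, FOS, JUN, EGR1 and ATF3 are known for their sharp rise after injury.

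Between 16829273 and 23784599 reads were counted on genes per library. INO80 itself was at 46.3, 49.3 and 54.0 CPM (the read count scaled by the TMM-normalized library total) in control siRNA replicates 1, 2 and 3 and at 13.8, 12.1 and 14.2 CPM in INO80 siRNA replicates 1, 2 and 3, so the labels matched the targeted gene. The kidney epithelial factor *PAX8* (33.4 to 48.7 FPKM, the read count scaled by exonic length and library total) and the keratin *KRT8* (82.2 to 96.5 FPKM) were measured in every library. The proximal tubule markers were mixed. The brush border enzymes *GGT1* (31.4 to 43.7 FPKM) and *MME* (1.65 to 2.71 FPKM) were measured in every library, the glucose transporter *SLC5A2* was at 0.24 to 0.48 FPKM, the phosphate transporter *SLC34A1* at 0.03 to 0.20 FPKM and *ANPEP* and *CUBN* at no more than 0.07 and 0.01 FPKM, and *LRP2* and *SLC22A6* were listed at 0. The leukocyte gene *PTPRC* and the thick limb gene *UMOD* were also listed at 0 in every library. Fewer cells that express a gene and less RNA of it per cell cannot be told apart in these bulk libraries.

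The 10 genes spanned a wide range of levels per transcript length. In the control siRNA libraries *FOSL2* (78.5 FPKM ± 3.65, SD, n = 3), *JUN* (76.6 ± 7.76), *JUND* (65.9 ± 4.13) and *FOSL1* (64.1 ± 4.56) were highest, each above at least 95.8% of the genes tested. Neighbours in this order overlapped between libraries. *JUNB* followed at 38.5 FPKM ± 2.56, below every library's value of the 4 genes above it. The stress and growth response genes were far lower, with *IER2* at 7.64 FPKM ± 0.723, *ATF3* at 3.28 ± 0.771 and *EGR1* at 1.28 ± 0.248. *FOSB* at 0.657 FPKM ± 0.165 and *FOS* at 0.247 ± 0.180 were lowest, and *FOS* was above only 5.42% of the genes tested. None of these last 5 overlapped its neighbour in the order across the control libraries.

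Under INO80 siRNA, 4 of the 10 genes fell when the replicate number was used as a block, namely *FOSL2*, *JUN*, *FOSL1* and *JUND*. These are the 4 with the highest levels, and the falls were small, from 8.21% to 18.2% of the control mean in CPM. None of the 10 was called higher in that fit, where *FOS*, *JUNB* and *IER2* had positive values. Of these, *JUNB* had an unadjusted p of 0.0445 (edgeR adjusted p = 0.131). With the treatment alone in the model none passed an adjusted p of 0.05, although 2 (*FOSL1* and *FOSL2*) had an unadjusted p under 0.05. All calls are from edgeR's quasi-likelihood test with Benjamini-Hochberg adjustment over the 15343 genes. The background differs greatly between these fits, since 1.75% of all genes tested were called with the treatment alone and 24.8% with the block, or 13.4% when only genes that fell are counted. The same count was 1 gene (*FOSL2*) with DESeq2, where 4.15% of all genes were called, and 1 (*FOSL2*) in edgeR without the filter, where 2.43% of 29137 genes were called. DESeq2 with the block called 3 (*FOSL2*, *JUN* and *FOSL1*), against 12.1% of all genes. In CPM, the 3 INO80 siRNA libraries lay outside the range of the 3 control libraries for 2 of the 10 genes, both lower, against 22.8% of all genes tested in either direction and 11.5% with the INO80 siRNA libraries below. The median log2 fold change over the 10 genes was -0.10 in both edgeR fits, beside 0.01 over all genes tested. No gene of the 10 reached a 2-fold change in either fit.

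**Figure D1:**
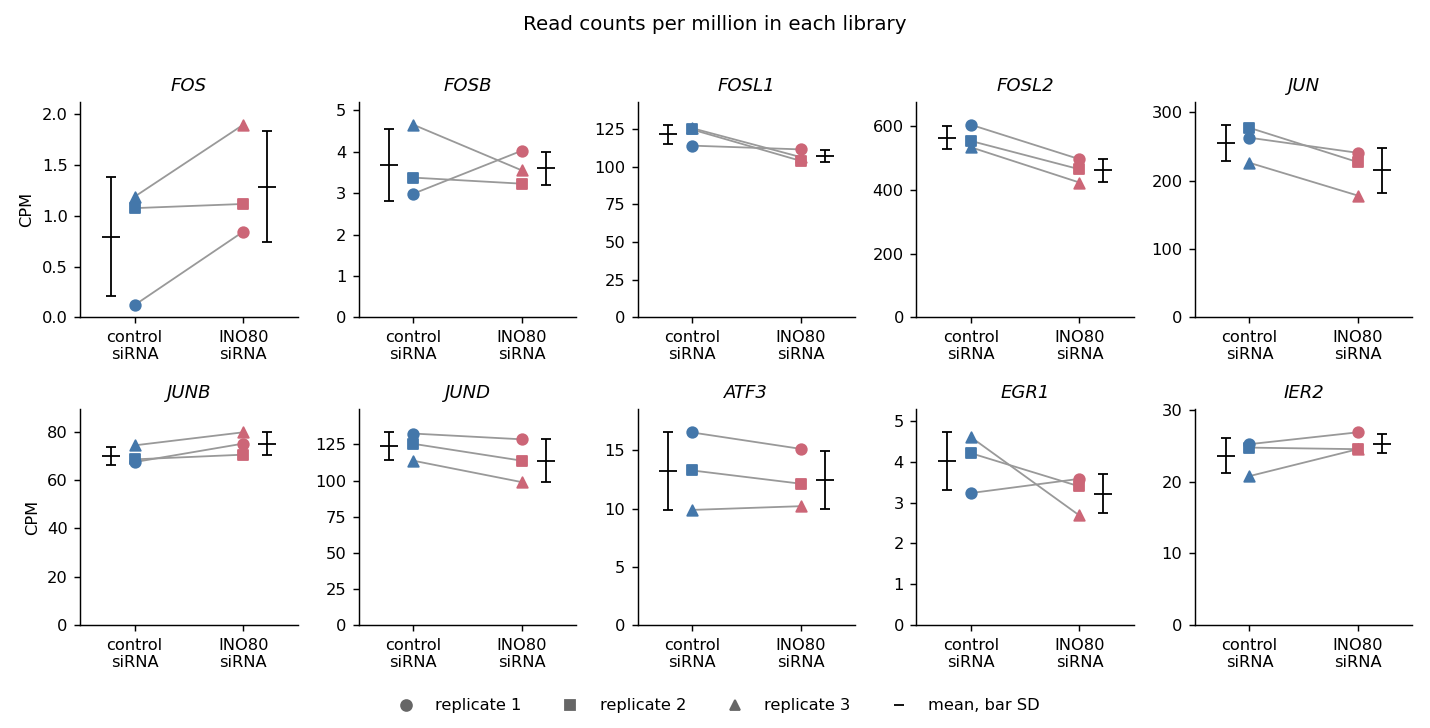
Normalized read count (CPM, vertical axes starting at 0) of the 10 genes in control siRNA (blue) and INO80 siRNA (red) libraries. Symbols mark replicates 1, 2 and 3, grey lines join libraries with the same replicate number, and black bars give the mean and SD of 3 libraries. *FOSL2* and *FOSL1* are lower in every INO80 siRNA library than in every control library, and the lines of *JUN* and *JUND* all slope downwards.

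FOSL2, also called FRA-2, was the most abundant Fos protein gene in these cells. Its gene lies on chromosome 2 from 28615315 to 28640179 (hg19, plus strand). *FOSL2* was at 605, 554 and 534 CPM in control siRNA replicates 1, 2 and 3 and at 497, 465 and 424 CPM in INO80 siRNA replicates 1, 2 and 3. The groups did not overlap, and the highest knockdown library lay below the lowest control library. The log2 fold change was -0.29 (SE 0.0763, edgeR adjusted p = 0.108) with the treatment alone and -0.29 (SE 0.0324, edgeR adjusted p = 2.07e-07) with the replicate block. The difference within pairs of the same replicate number was -0.28, -0.25 and -0.34 on the log2 scale, which is a decrease in 3 of 3 pairs. It stayed past the threshold under the block when any pair was left out, with log2 fold changes from -0.31 to -0.27. Such fits estimate the spread of a gene largely from other genes, so a call there is weak evidence of stability. Without pair 1 the edgeR adjusted p was 3.76e-26, smaller than with all pairs. An AP-1 element lies beside the start of this gene, and it is printed here because *FOSL2* had the smallest p of the 10 genes. The bases come from the RefSeq annotation of GRCh38.p14 on the plus strand, 15 bases before the start site and 15 from it, with TGACTCA in capitals.

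FOSL2, chr2:28392843-28392872: tgaactcgtgccattgtagTGACTCAtctc

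The element covers bases 5 to 11 from the start site. TGACTCA, searched on both strands, was present in 4.95% of the 35116 RefSeq windows of the same length, from 250 bases before to 50 bases from the start of transcription, and in no other window of the 9 genes that had an entry. *FOSL1* had no entry.

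FOSL1, or FRA-1, is the other Fos protein that lacks the strong activation domain of FOS, and it is encoded on chromosome 11 from 65659520 to 65668044 (hg19, minus strand). *FOSL1* was at 114, 125 and 126 CPM in the control siRNA libraries and at 111, 104 and 106 CPM in the INO80 siRNA libraries, in the order of replicates 1, 2 and 3. Control replicate 1 lay close to the knockdown libraries, and the groups did not overlap. Its log2 fold change was -0.18 (SE 0.0624, edgeR adjusted p = 0.199) with the treatment alone and -0.18 (SE 0.0447, edgeR adjusted p = 0.0036) with the block. The fall was much smaller in pair 1 than in the others, with log2 differences of -0.03, -0.26 and -0.24. Its call under the block was lost without pair 2 (edgeR adjusted p = 0.0873) and without pair 3 (edgeR adjusted p = 0.0895).

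*FOS*, the prototype of the family, is the gene most used as a marker of acute stimulation, and it was hardly detected. It lies on chromosome 14 from 75745477 to 75748933 (hg19). Its read counts were 2, 22 and 23 in control siRNA replicates 1, 2 and 3 and 17, 27 and 46 in INO80 siRNA replicates 1, 2 and 3. The count of 2 has an exact 95% Poisson interval from 0.242 to 7.22 reads, below the lower limits of the other libraries, and this interval covers counting error only. The INO80 siRNA libraries overlapped the control libraries. The fitted log2 fold change of 0.66 (SE 0.583, edgeR adjusted p = 0.637) had a 95% interval from -0.67 to 1.99, and with the block it was 0.69 (SE 0.359, edgeR adjusted p = 0.173), so no difference was detectable at this depth. *FOSB*, on chromosome 19 from 45971253 to 45978437, was at 2.99, 3.38 and 4.66 CPM in control siRNA and at 4.03, 3.23 and 3.55 CPM in INO80 siRNA libraries. The groups overlapped fully, and the log2 fold change was -0.03 with a 95% interval from -0.52 to 0.45. *FOSB* overlaps *ERCC1* on the opposite strand, which had 484 to 720 reads per library, and whether the counting used the strand was not given in the sources used here.

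JUN, the founding member of the Jun family and a target of the JNK kinases, is encoded by an intronless gene on chromosome 1 from 59246465 to 59249785 (hg19, minus strand). *JUN* was at 263, 278 and 226 CPM in control siRNA replicates 1, 2 and 3 and at 241, 227 and 178 CPM in INO80 siRNA replicates 1, 2 and 3. The groups overlapped, with replicate 3 the lowest in both, while the knockdown library was lower in 3 of 3 pairs. For *JUN* the log2 fold change was -0.25 (SE 0.119, edgeR adjusted p = 0.356) with the treatment alone and -0.25 (SE 0.0390, edgeR adjusted p = 2.23e-05) with the block, and the pairs differed by -0.13, -0.29 and -0.34 on the log2 scale. The call under the block held when any pair was left out, with log2 fold changes from -0.32 to -0.21. As for *FOSL2*, such fits estimate the spread largely from other genes.

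JUND, known as the Jun protein of resting cells, was nearly as abundant as *JUN* per length and lies on chromosome 19 from 18390563 to 18392432 (hg19, minus strand). *JUND* was at 133, 125 and 114 CPM in control siRNA and at 129, 114 and 98.9 CPM in INO80 siRNA libraries. The highest knockdown library stood above the lower control libraries, yet the fall was present in 3 of 3 pairs, with log2 differences of -0.04, -0.14 and -0.20. For *JUND* the log2 fold change was -0.12 (SE 0.1, edgeR adjusted p = 0.605) with the treatment alone and -0.13 (SE 0.0415, edgeR adjusted p = 0.0236) with the block. It was the weakest of the 4 calls. Without pair 2 (edgeR adjusted p = 0.137) or pair 3 (edgeR adjusted p = 0.312) the call was lost, and DESeq2 with the block gave an adjusted p of 0.122.

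The 250 bases before the start sites of *JUN* and *JUND* are printed because both fell with the block and each carries an 8-base variant of the AP-1 element, in capitals. They are read 5′ to 3′ on the minus strand of GRCh38.p14, the strand of both genes, from the RefSeq annotation.

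JUN, chr1:58784048-58784297: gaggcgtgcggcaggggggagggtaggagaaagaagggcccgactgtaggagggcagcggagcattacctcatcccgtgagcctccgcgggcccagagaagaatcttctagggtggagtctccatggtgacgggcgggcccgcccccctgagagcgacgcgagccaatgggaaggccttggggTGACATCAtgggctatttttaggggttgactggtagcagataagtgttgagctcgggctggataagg

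JUND, chr19:18281623-18281872: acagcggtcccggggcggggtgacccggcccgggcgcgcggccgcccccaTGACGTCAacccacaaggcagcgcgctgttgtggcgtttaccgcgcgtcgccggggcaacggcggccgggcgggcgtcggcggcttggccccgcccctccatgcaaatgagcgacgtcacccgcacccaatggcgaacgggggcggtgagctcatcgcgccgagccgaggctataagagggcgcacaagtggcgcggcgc

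In *JUN* the element TGACATCA stands at bases -67 to -60 from the start site. TGACATCA was present on either strand in 2.61% of the 35116 windows, and among the 9 genes also in 1 of the 2 windows of *ATF3*, at bases -123 to -116. In *JUND* the palindrome TGACGTCA, the consensus of the CREB and ATF proteins, stands at bases -200 to -193 and was present in 1.85% of all windows. These matches are descriptions of the reference sequence.

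*JUNB*, whose protein often opposes JUN, lies on chromosome 19 from 12902310 to 12904124 (hg19). *JUNB* was at 67.5, 68.6 and 74.4 CPM in control siRNA and at 75.1, 70.5 and 79.8 CPM in INO80 siRNA libraries. The knockdown library was the higher in 3 of 3 pairs, while the groups overlapped. The log2 fold change of 0.10 did not pass the test with the treatment alone (SE 0.0699, edgeR adjusted p = 0.538) or with the block (SE 0.0461, edgeR adjusted p = 0.131). Its opposite-strand neighbour *HOOK2* overlaps the gene and had 480 to 838 reads per library.

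**Figure D2:**
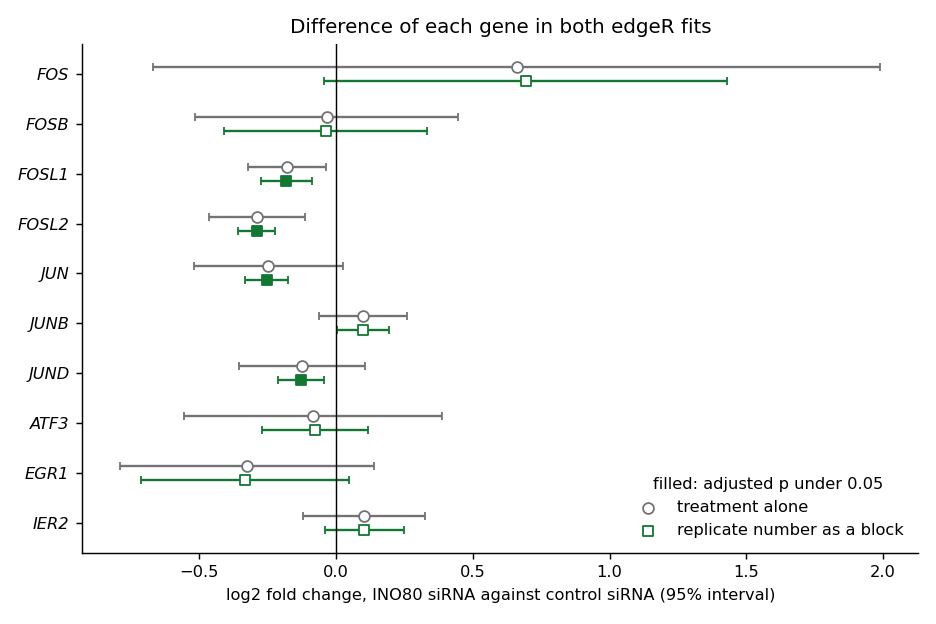
Log2 fold change of the 10 genes between INO80 siRNA and control siRNA, with 95% intervals, from edgeR with the treatment alone (grey circles) and with the replicate number as a block (green squares). Filled symbols mark an adjusted p under 0.05, which only *FOSL1*, *FOSL2*, *JUN* and *JUND* reached, and only with the block, whereas the estimates themselves nearly coincide between fits.

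Because each Fos protein needs a Jun partner, the transcripts were also summed per length within each family, as a description. The Fos family summed to 141.7, 145.2 and 143.3 FPKM in control siRNA replicates 1, 2 and 3 and to 125.8, 122.9 and 118.9 FPKM in INO80 siRNA replicates 1, 2 and 3. The groups did not overlap, and the mean decreased by 14.6%. *FOSL1* and *FOSL2* together made up 98.95% to 99.6% of this sum in every library, and *FOS* and *FOSB* together between 0.395% and 1.05%. The Jun family summed to 182.4, 189.5 and 171.0 FPKM in control and to 177.6, 170.8 and 153.3 FPKM in INO80 siRNA libraries, which overlapped. Within that sum *JUN* held 35.7% to 44.4%, *JUND* 35.1% to 37.9% and *JUNB* 19.8% to 29.2%. The share of *JUNB* was 21.3% ± 2.40 (SD, n = 3) in control and 25.0% ± 3.64 in INO80 siRNA libraries, a difference within the overlap of the groups.

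**Figure D3:**
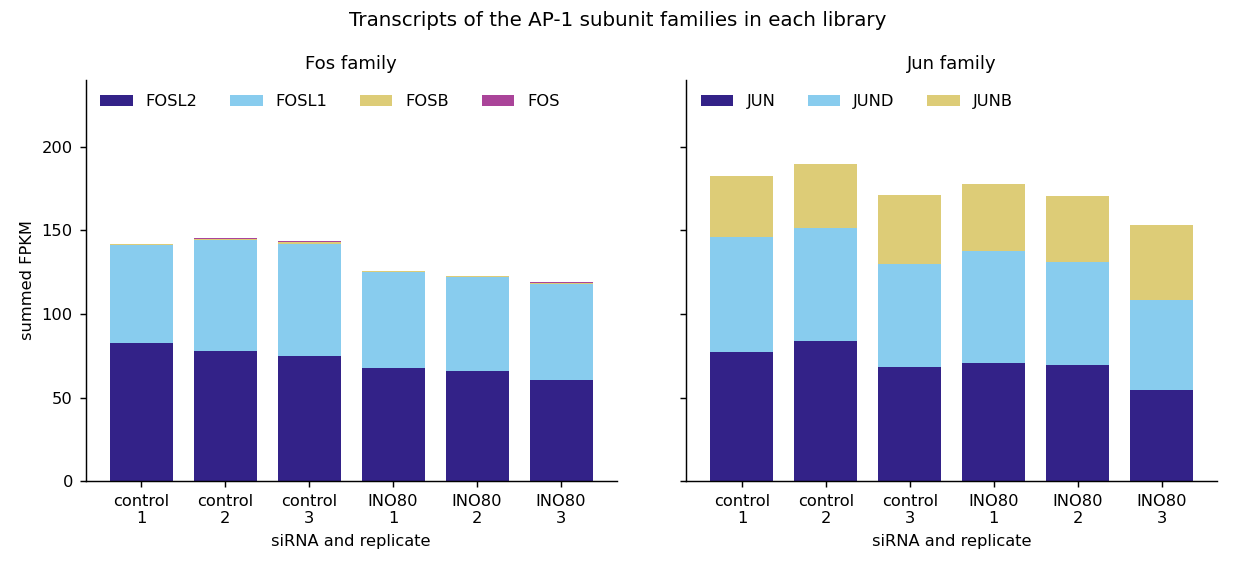
Summed FPKM (vertical axis from 0) of the Fos family genes on the left and the Jun family genes on the right, in each of the 3 control siRNA and 3 INO80 siRNA libraries, with each colour standing for a gene. *FOSL2* and *FOSL1* fill the Fos bars and *FOS* and *FOSB* are too thin to see clearly. The Fos bars are lower in every INO80 siRNA library, and the Jun bars overlap between groups.

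ATF3 is a stress-induced leucine zipper factor that dimerizes with Jun proteins, encoded on chromosome 1 from 212738676 to 212794119 (hg19). *ATF3* was at 16.5, 13.3 and 9.88 CPM in control siRNA replicates 1, 2 and 3 and at 15.1, 12.1 and 10.2 CPM in INO80 siRNA replicates 1, 2 and 3. Replicate 1 was the highest and replicate 3 the lowest in both groups, and the spread between replicates exceeded the difference between treatments. The log2 fold change was -0.08 (SE 0.206, edgeR adjusted p = 0.890) with a 95% interval from -0.55 to 0.39, and with the block the interval was -0.27 to 0.12. A fall of the size seen for *FOSL2* lies within the first interval and outside the second. With DESeq2 and the block the *ATF3* interval was -0.36 to 0.21, which holds the *FOSL2* value of -0.29 in that fit.

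EGR1 is a zinc finger factor outside the AP-1 family that is induced through the same MAP kinase route. It is encoded on chromosome 5 from 137801179 to 137805004 (hg19). *EGR1* was at 3.23, 4.21 and 4.60 CPM in control siRNA and at 3.58, 3.40 and 2.68 CPM in INO80 siRNA libraries, from 53 to 89 reads each. The pairs disagreed in direction, with log2 differences of 0.15, -0.31 and -0.78. Over all pairs the log2 fold change was -0.33 (SE 0.203, edgeR adjusted p = 0.480) with the treatment alone and -0.33 (SE 0.184, edgeR adjusted p = 0.204) with the block. Pair 1 decided the call, since without it the blocked log2 fold change was -0.54 (edgeR adjusted p = 0.0345), while without pair 3 it was -0.10 (edgeR adjusted p = 0.828).

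The 250 bases before the start of *EGR1* are printed because they hold 2 copies of the CArG box (in capitals), the site of the serum response factor, whose own gene *SRF* fell with the block. They are read on the plus strand of GRCh38.p14 from the RefSeq annotation.

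EGR1, chr5:138465229-138465478: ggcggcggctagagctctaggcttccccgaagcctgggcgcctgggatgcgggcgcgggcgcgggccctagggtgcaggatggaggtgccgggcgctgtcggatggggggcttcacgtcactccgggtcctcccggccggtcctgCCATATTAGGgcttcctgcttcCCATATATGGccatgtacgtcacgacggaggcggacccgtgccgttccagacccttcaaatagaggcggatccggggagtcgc

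The boxes start 105 and 83 bases before the start site. A CArG box was present in 1.29% of the 35116 windows and in no other window of the 9 genes. No match means here that the letters are not within the window, and sites farther away were not searched. Whether the levels of *SRF* and *EGR1* are linked was not tested.

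*IER2*, a small nuclear regulator on chromosome 19 from 13261229 to 13265722 (hg19), was at 25.2, 24.8 and 20.8 CPM in control siRNA and at 26.9, 24.6 and 24.6 CPM in INO80 siRNA libraries. The groups overlapped, with the low control replicate 3 as the library that stood lowest. The log2 fold change was 0.10 (SE 0.0977, edgeR adjusted p = 0.668), with a 95% interval from -0.12 to 0.33.

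Replicate 1 differed from replicates 2 and 3 in both groups across the transcriptome, with 15.8% of all genes called and 8.24% called higher (edgeR with treatment as a term). Of the 10 genes 3 were called, all higher in replicate 1, and *FOS* was lower in value. *ATF3* was higher in replicate 1 by 0.47 on the log2 scale (SE 0.128, edgeR adjusted p = 0.0264), with 0.53 in control and 0.44 in INO80 siRNA libraries. *JUND* was higher by 0.21 (SE 0.0657, edgeR adjusted p = 0.0487) and *FOSL2* by 0.16 (SE 0.0486, edgeR adjusted p = 0.0486). For *ATF3*, *JUND* and *FOSL2* alike the sign was the same in both groups. The replicate difference of *JUND* was larger in size than its treatment difference, and that of *FOSL2* was smaller. *FOS* had a log2 difference of -1.42 (SE 0.468, edgeR adjusted p = 0.0624), and of -0.83 without control replicate 1 with its 2 reads. The number called varied with the library left out. None of the 10 genes was called without INO80 replicate 3 (13.5% of all genes tested), and 1 without control replicate 3 (14.9%). Without control replicate 2 the number was 2 (12.6%), and without INO80 replicate 2 it was 4 (13.4%). Leaving out either library of replicate 1 leaves 1 library of it, and only sizes are given for those fits. *ATF3* was then higher by 0.44 without control replicate 1 and by 0.51 without INO80 replicate 1. The matching values were 0.27 and 0.15 for *JUND* and 0.16 and 0.15 for *FOSL2*. DESeq2 called *ATF3* alone, against 11.6% of all genes.

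**Figure D4:**
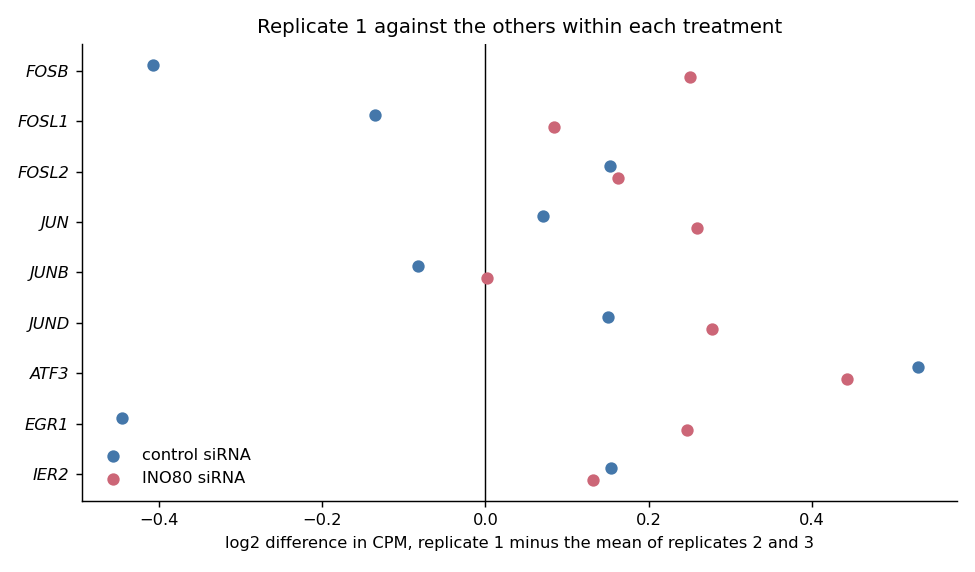
Log2 difference in CPM between replicate 1 and the mean of replicates 2 and 3, within control siRNA (blue) and within INO80 siRNA (red) libraries, each point from 1 library against 2. *FOS* is left out because of its 2 reads in control replicate 1. *ATF3*, *JUND*, *JUN*, *FOSL2* and *IER2* are right of 0 in both treatments, and *FOSB*, *FOSL1*, *EGR1* and, close to 0, *JUNB* change sign between them.

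The factors upstream of the response were compared in a list of 18 kinases and serum response factors, all tested. With the block 6 fell and 3 rose, beside the 24.8% of all genes tested that were called in that fit, and with the treatment alone none passed the test in edgeR, where 6 had an unadjusted p under 0.05, and 1 did in DESeq2. DESeq2 with the block called 7, and the blocked edgeR count was 8, 9 and 6 without pair 1, 2 and 3. Those edgeR fits called 25.4%, 17% and 14.6% of all genes. The median log2 fold change was -0.04. *SRF*, the factor that binds the CArG box, was at 90.9, 92.7 and 88.04 CPM in control siRNA and at 78.5, 73.4 and 72.4 CPM in INO80 siRNA libraries without overlap, a log2 fold change of -0.28 (SE 0.0446, edgeR adjusted p = 3.95e-05 with the block and 0.0604 without). The RSK kinases *RPS6KA3* and *RPS6KA1*, which phosphorylate FOS and serum response factor, fell by 0.26 (SE 0.0386, edgeR adjusted p = 1.16e-05) and by 0.28 (SE 0.0477, edgeR adjusted p = 7.83e-05) on the log2 scale with the block. *ELK1*, the partner of serum response factor that ERK activates, rose by 0.24 (SE 0.0423, edgeR adjusted p = 0.000154) in the same fit.

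MAP kinase phosphatases and feedback inhibitors of the immediate early response, many induced with it, had the most uniform direction with the block. Of 15 tested out of 16 listed, 9 fell and none rose (60.0%, beside 24.8% of all genes tested and 13.4% that fell), and the median log2 fold change was -0.19. With the treatment alone none was called by edgeR, where 7 had an unadjusted p under 0.05, and 3 were called by DESeq2. DESeq2 with the block called 4. The blocked count was 8, 6 and 4 without pair 1, 2 and 3, beside 25.4%, 17% and 14.6% of all genes. *DUSP10*, a phosphatase of JNK and p38, was at 94.3, 67.1 and 60.9 CPM in control siRNA and at 66.2, 48.5 and 44.5 CPM in INO80 siRNA libraries, and the blocked log2 fold change was -0.48 (SE 0.0477, edgeR adjusted p = 3.16e-08). Its replicate 1 was far above the others in both groups, so the groups overlapped although every pair fell. *DUSP5*, a nuclear phosphatase of ERK, fell by 0.47 (SE 0.0486, edgeR adjusted p = 4.79e-08) with the block, from 73.9, 80.5 and 58.8 CPM to 53.5, 59.5 and 40.8 CPM. *DUSP14* and the ERK pathway inhibitor *SPRED2* fell by 0.27 and 0.28 with the block (edgeR adjusted p = 0.000259 and 0.000116), and their groups did not overlap.

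Genes with known AP-1 control had the highest share called among the 5 lists. Of 18 tested out of 20 listed, 10 fell and 2 rose with the block (66.7%, beside 24.8% of all genes tested and 13.4% that fell), the median log2 fold change being -0.17 with the block and -0.15 without. DESeq2 with the block called 8, and the blocked edgeR count was 12, 8 and 9 without pair 1, 2 and 3. Those edgeR fits called 25.4%, 17% and 14.6% of all genes. In replicate 1, 10 of the list were called higher (edgeR), beside 8.24% of all genes tested. Only *HMOX1* was called with the treatment alone, where 1.75% of all genes were called. None of the list was called in that fit without control replicate 1, 2 or 3 or without INO80 replicate 2 or 3. Those fits called only 0.115% to 0.67% of all genes. *IL6*, which encodes an inflammatory cytokine, was at 229, 134 and 122 CPM in control siRNA and at 112.5, 60.4 and 53.0 CPM in INO80 siRNA libraries. Every knockdown library was below every control library, replicate 1 was the highest in both groups, and the log2 fold change was -1.12 (SE 0.0431, edgeR adjusted p = 2.92e-16) with the block and -1.10 (SE 0.317, edgeR adjusted p = 0.131) without. *HMOX1*, encoding the heme-degrading enzyme heme oxygenase, was at 91.7, 107 and 86.1 CPM in control siRNA and at 64.9, 71.1 and 66.0 CPM in INO80 siRNA libraries (log2 fold change -0.50, SE 0.0878, edgeR adjusted p = 0.0377 with the treatment alone). *CCND1*, which encodes cyclin D1, fell by 0.33 with the block (SE 0.0398, edgeR adjusted p = 7.93e-07), yet its replicate 1 exceeded the others by 1.11 on the log2 scale.

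Other leucine zipper factors, some of which can pair with Jun or Fos proteins, were mostly not called. Of 16 tested out of 19 listed, 1 fell and 1 rose with the block (12.5%, beside 24.8% of all genes tested), and the median log2 fold change was 0.08. The blocked count was 5, 3 and 2 without pair 1, 2 and 3, beside 25.4%, 17% and 14.6% of all genes. *MAF*, a large Maf factor, was at 67.0, 60.8 and 57.9 CPM in control siRNA and at 36.3, 35.5 and 39.0 CPM in INO80 siRNA libraries. The groups stood far apart, and *MAF* was the only gene of this list past the threshold with the treatment alone (log2 fold change -0.75, SE 0.0770, edgeR adjusted p = 0.0063). The small Maf gene *MAFG* rose by 0.18 with the block (SE 0.0435, edgeR adjusted p = 0.00341), without overlap between groups.

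Other immediate early genes showed no common direction. Of 21 tested out of 23 listed, 4 fell and 2 rose with the block (28.6%, close to the 24.8% of all genes tested), and the median log2 fold change was -0.01. None was called by edgeR or DESeq2 with the treatment alone, and none had an unadjusted p under 0.05 in edgeR. DESeq2 with the block called 2, and the blocked edgeR count was 5, 4 and 1 without pair 1, 2 and 3. Those edgeR fits called 25.4%, 17% and 14.6% of all genes. *CYR61* (CCN1), a secreted matrix protein gene, fell by 0.15 (SE 0.0352, edgeR adjusted p = 0.00173) and its relative *CTGF* (CCN2) rose by 0.22 (SE 0.0560, edgeR adjusted p = 0.00546). The NF-kB inhibitor gene *NFKBIA* fell by 0.15 (SE 0.0419, edgeR adjusted p = 0.00899) and the zinc finger gene *KLF6* by 0.13 (SE 0.0327, edgeR adjusted p = 0.00345). All 4 overlapped between groups, and *KLF6*, *CYR61* and *NFKBIA* were also called higher in replicate 1. The largest fitted fall of this list was that of the nuclear receptor gene *NR4A3*, singled out after its values were seen, with a log2 fold change of -1.29 (SE 0.470, edgeR adjusted p = 0.0451) with the block. Without the block the edgeR adjusted p was 0.324. *NR4A3* was measured at 0.976, 0.441 and 1.60 CPM in control siRNA and at 0.696, 0.373 and 0.165 CPM in INO80 siRNA libraries, which overlapped. These levels are near the floor, since 3 reads are 0.124 CPM in INO80 replicate 3.

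**Figure D5:**
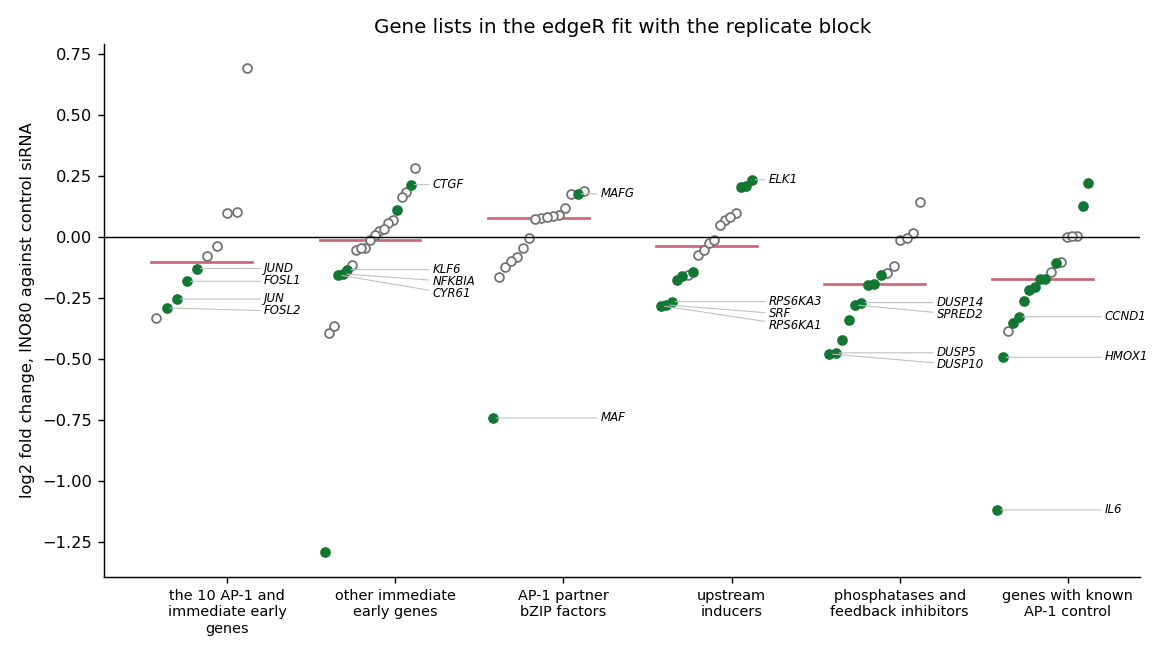
Log2 fold change between INO80 siRNA and control siRNA in the edgeR fit with the replicate block, for the 10 genes and for 5 gene lists, each point a tested gene, in order of value within its column. Green points had an adjusted p under 0.05, open points did not, and red lines are medians. The list of phosphatases and feedback inhibitors has 9 green points below 0 and none above, whereas the list of other immediate early genes lies around 0.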

How the data were processed

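The authors deposited 1 table for the 6 libraries, which gives every gene's unnormalized count and its FPKM. Poly(A) RNA was made into directional paired-end libraries. The submitters' processing notes name HISAT2 2.0.1, HTSeq and hg19, whereas the paper names ELAND. The deposited count values carry no normalization, and the authors calculated FPKM from read counts and gene lengths. FPKM served for levels compared between genes and for the sums of the Fos and Jun families. Those sums were also compared between treatments, and they carry no TMM scaling.

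Counts were analysed in R 4.3.3 with edgeR 4.0.16 (filterByExpr, TMM, quasi-likelihood test, Benjamini-Hochberg adjustment over 15343 genes, threshold 0.05), with the treatment alone as the main model. No library pair held identical values. Across genes, deviations from the group mean of libraries with the same replicate number correlated at 0.639, 0.446 and 0.427, and those with different numbers between -0.447 and 0.165. The numbers were therefore taken to pair the libraries, and the block is given beside each result whose call it changes. A fit of replicate 1 against the others had the treatment as a term. Alternatives were DESeq2 1.42.0, RLE size factors, no filter, a 2-fold limit, and leaving out libraries or pairs. Blocked fits without a pair estimate the spread of a gene largely from other genes, and their p-values are to be read with that limit. On simulated data 200 of 200 changed genes were recovered among 15343 genes in each edgeR step and in DESeq2 with the treatment alone. Recovery of differences as small as those of the 10 genes, or at read counts as low as those of *FOS*, was not tested. CPM used TMM-scaled totals. Motifs were searched in Python 3.11.15.

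The 10 genes were given in advance, and they, the gene lists and the tests were chosen with earlier results of these data known. Of each list at most 4 genes were named, those with the smallest p under the block among genes with an adjusted p under 0.05. *NR4A3* was named outside this rule, for the size of its fitted fall. Results for some genes are not reported here. The exact two-sided permutation test cannot give less than 0.1 with 3 libraries against 3.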

Additional observations from a re-analysis of the deposited data

How the results depend on the processing

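Counts of the 10 genes called for the treatment moved most with the model. None was called with the treatment alone, with RLE size factors, with a 2-fold limit or without any single library, 1 was called without the filter and 1 with DESeq2. Treatment fits without a single library called 0.115% to 0.932% of all genes. With the replicate block 4 were called, as they were with the block and RLE size factors or no filter, 3 with the block in DESeq2 and 0 with the block and a 2-fold limit. Blocked fits without pair 1, 2 and 3 called 5, 2 and 2, beside 25.4%, 17% and 14.6% of all genes. The negative fitted values of *FOSL2*, *JUN*, *FOSL1*, *JUND* and *EGR1* kept their sign under all 16 alternatives of each, as did the positive values of *FOS*, *JUNB* and *IER2*. *FOSB* turned positive without control replicate 3 (0.17), without INO80 replicate 2 (0.04) and without pair 3 under the block (0.17), and *ATF3* without control replicate 1 (0.10) and without INO80 replicate 3 (0.05), none of them past the threshold. Leaving out a library or pair, *FOSB* ranged from -0.24 to 0.17 and *ATF3* from -0.26 to 0.10. For replicate 1, 3 genes were called, 1 without the filter and 1 with DESeq2, beside 15.8%, 6.61% and 11.6% of all genes. Leaving out a library of replicates 2 and 3 gave 0 to 4, beside 12.6% to 14.9%. In the replicate 1 fits *FOSB* turned positive without control replicate 1 (0.25) and without control replicate 3 (0.08). There, *FOSL1* (0.084) and *EGR1* (0.24) turned positive without control replicate 1. These ranged from -0.42 to 0.25, from -0.13 to 0.084 and from -0.45 to 0.24. The cause of these changes was not tested. The counts of *FOS*, *FOSB* and *EGR1* were the lowest, at no more than 90 reads per library, and the part of depth in the width of their intervals was not tested. Among all genes called, 85.1% were lower with the treatment alone and 54.0% with the block.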
